A study of Sus scrofa with 32 samples.

Results

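XCL1 and XCR1 are 2 of the 25880 genes counted in the data, and they were followed by gene symbol through every cell of all 8 single-cell libraries. XCL1 encodes lymphotactin, a small secreted chemokine of the C family that is known from natural killer cells and activated CD8 T cells. XCR1 encodes its receptor, a G protein-coupled receptor best known from the conventional type 1 dendritic cell (cDC1), which presents antigen to CD8 T cells. Release of XCL1 by lymphocytes is known to draw XCR1-bearing dendritic cells towards them, so a map of both genes shows which cells of a tissue could send and which could receive this signal. The gut wall holds innate lymphoid cells (ILCs), lymphocytes without an antigen receptor, and, in pigs, many γδ T cells.

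Cells came from 2 mixed-breed pigs of 7 weeks, pig 1 labelled female and pig 2 labelled male, neither of them given a treatment or carrying a named allele in the labels. From each pig the ileum was dissected in 3 ways, as tissue holding only Peyer's patches (PP), as tissue free of them (non-PP), and as whole ileum, and peripheral blood mononuclear cells (PBMC) were taken as well. Ileal cells of the epithelium, lamina propria, submucosa and PP were pooled and enriched for live lymphocytes on a Percoll gradient and by dead cell removal, so epithelial, stromal and myeloid cells were few by design and shares of ileal cells are shares of this enriched suspension. Each library was sequenced in 4 runs (32 samples in all), which were read as 1 replicate, and the 2 pigs are the replicates of every test.

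The libraries held 21134542 to 40111934 UMIs (unique molecular identifiers, 1 per captured transcript), and after filters and doublet removal 3645 to 7414 cells remained in each, 34188 from ileum and 12878 from blood, with a median of 2550.5 to 3519 UMIs per cell. Libraries shared 0.549% to 1.22% of the barcodes of the smaller library of a pair. The whole ileum library of pig 1 went against its label, with 207 CPM (UMIs per 1000000 UMIs) of 4 Y-linked genes against 0 to 0.232 CPM in the other libraries of pig 1 and 119 to 225 CPM in those of pig 2. In both non-PP libraries the class named B lineage-like held cytotoxic genes, at 10081 and 6303 CPM in pigs 1 and 2 beside 309 and 1901 CPM of B cell genes, where the PP libraries had 170 and 200 CPM of cytotoxic and 2708 and 2691 CPM of B cell genes. The tests below were therefore repeated without the whole ileum library of pig 1 and, where they do not compare dissections, without the non-PP libraries. For the main XCL1 and XCR1 results, values without them are given where a call was lost or gained.

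By the Sscrofa11.1 annotation of RefSeq, XCL1 (ENSSSCG00000006298) lies on chromosome 4 from 82432845 to 82436150 and XCR1 (ENSSSCG00000026707) on chromosome 13 from 29150376 to 29233802. XCR1 stands in a run of chemoattractant receptor genes with CCR9 and CXCR6 on one side and CCR1 and CCR3 on the other. CCR1, from 29227218 to 29233862, shares 6585 bases with the span of XCR1, so reads of one gene could have been counted for the other, and CCR1 is given for the cell types and sub-clusters that held XCR1.

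Most XCL1 lay in T cells and ILCs in both tissues. In ileum 24438 XCL1 UMIs, 93.8% of all, lay in the 16039 T/ILC-like cells, which were 46.9% of the cells, and in blood 3429 UMIs, 92.8%, lay in 7644 T/ILC-like cells, 59.4% of the cells. The level was uneven between cells. In ileum 6140 cells held at least 1 XCL1 UMI with a median of 2, and 587 of them held 10 or more, up to 275 in 1 cell. In blood 1549 cells held one with a median of 1, and 42 held 10 or more, up to 34. Free RNA in the droplets gives a few UMIs to every cell type, and near-empty barcodes of at most 100 UMIs carried XCL1 at 177 to 432 CPM in ileum and 69.3 and 73.4 CPM in blood. B lineage-like cells, which should lack XCL1, gave the background of a filled droplet in the PP and whole ileum libraries, 6.95 to 16.5 CPM with an UMI in 2.18% to 3.90% of cells, and in blood 2.78 and 2.32 CPM. In non-PP, where the same class held cytotoxic genes, it was at 402 and 163 CPM. Ileal mast-like cells held 239 and 150 CPM in pigs 1 and 2, above some T/ILC-like classes. These were 44 XCL1 UMIs in 9 of 68 cells, and 23 and 9 of them came from non-PP of pigs 1 and 2.

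Over all cells of a library, XCL1 stood at 471 and 473 CPM in non-PP of pigs 1 and 2, at 219 and 125 CPM in whole ileum, at 119 and 129 CPM in PP and at 58.5 and 71.0 CPM in PBMC. The groups kept apart in this order except PP and whole ileum, which overlapped. By edgeR's quasi-likelihood test on these sums, with Benjamini-Hochberg adjustment over all genes tested as in every test below, PP fell by 1.84 on the log2 scale against non-PP (SE 0.260, adjusted p = 0.0086), a comparison in which 20.1% of genes were called. The mean of the 3 ileal dissections was higher than PBMC by 1.72 (SE 0.230, adjusted p = 0.0028), with 28.8% of genes called. Within such sums, fewer cells that express a gene and less RNA per cell cannot be told apart. Restricted to T/ILC-like cells, the levels were 589 and 538 CPM in non-PP, 432 and 489 CPM in PP, 479 and 593 CPM in whole ileum, and 93.3 and 145 CPM in PBMC, so PP and non-PP lay closer together in T/ILC-like cells alone.

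Among ileal T/ILC-like cells, non-naive classes led, from ILCs, γδ T cells and a small mixed T-like class. CD4 and CD8 T cells below are αβ T cells. Classes were built without XCL1 and XCR1 and named from markers, "non-naive" for clusters high in CTSW and the genes that go with it and "cytotoxic" for those high in granzyme and granulysin genes. Non-naive group 1 ILC-like cells, the tissue relatives of natural killer cells, held 1348 CPM of XCL1 in pig 1 and 1606 CPM in pig 2, 1477 ± 182 CPM (SD, n = 2). Non-naive mixed T-like cells averaged 1229 and 1552 CPM, uneven between libraries as given below. Non-naive CD2+ γδ T-like cells held 1376 and 1271 CPM, 1323 ± 74.3 CPM, and kept between 1153 and 1431 CPM in all 6 libraries. These γδ T cells were 5.84% of ileal cells (1998 cells) but held 8734 UMIs, 33.5% of all ileal XCL1, the largest share of any class. Non-naive CD8 T-like cells came next by amount, with 745 and 923 CPM and 17.8% of the XCL1 in 1960 cells.

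Group 3 ILC-like cells, the IL22-expressing helper type of ILC, held 991 and 898 CPM, 944 ± 65.7 CPM, over 276 cells. Cytotoxic CD2+ γδ T-like cells held 550 and 515 CPM and cytotoxic CD8 T-like cells 231 and 304 CPM. Non-naive CD4 T-like cells held 202 and 128 CPM. Below them stood cytotoxic group 1 ILC-like cells, 2155 cells against 210 in the non-naive class, with 144 and 134 CPM, 139 ± 6.87 CPM, and at the bottom follicular CD4 T-like cells, the helpers of the B cell follicle, with 32.8 and 19.9 CPM, which is near the level of stromal-like (32.8 and 27.9 CPM). In the middle of the order lay cycling mixed T-like (305 and 413 CPM), cycling mixed T/ILC-like (267 and 402 CPM), naive mixed T-like (201 and 237 CPM) and CD2- γδ T-like cells (117 and 225 CPM), the last being the γδ lineage that pigs have and mice and humans lack.

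**Figure D1:**
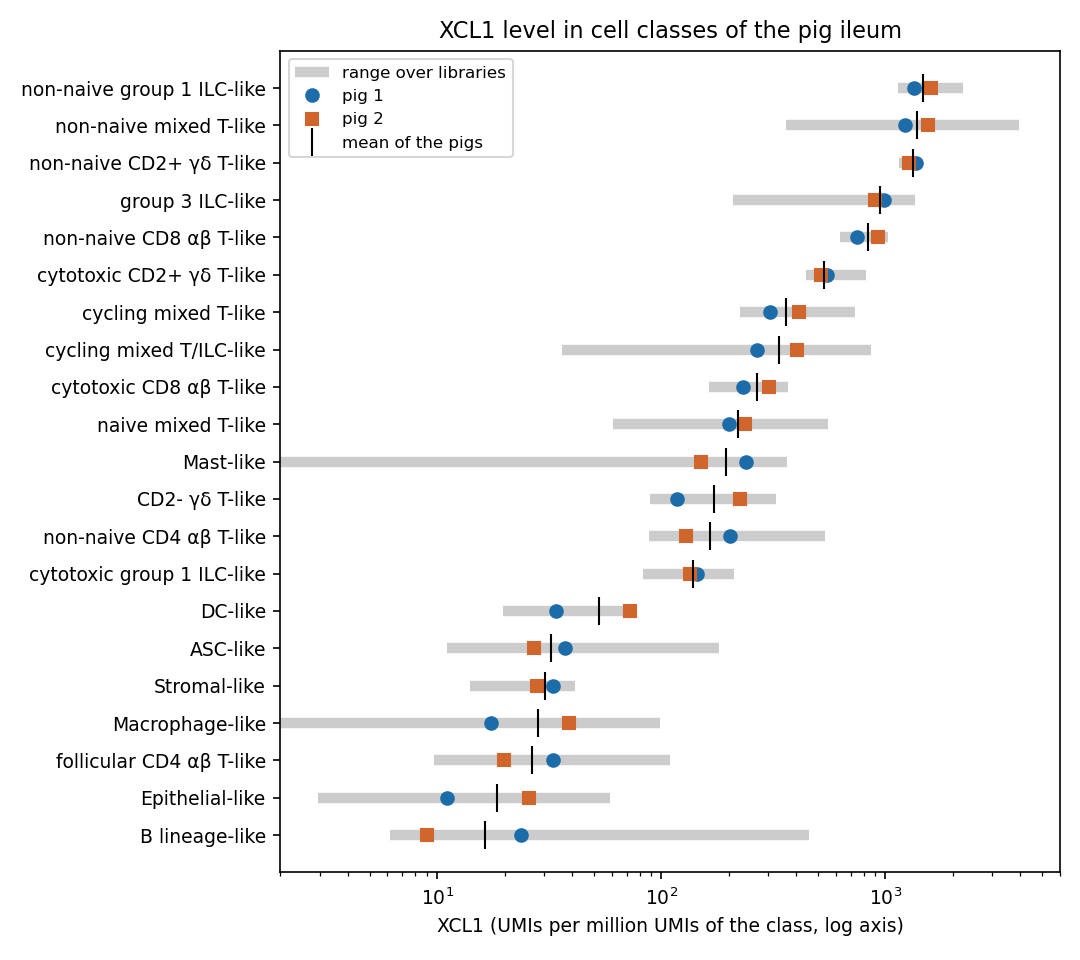
XCL1 level in each ileal class in CPM (log axis), with a circle for pig 1, a square for pig 2, a bar for their mean and a grey bar for the range over libraries, which reaches the left edge where 1 library was at 0. Non-naive group 1 ILC-like and non-naive CD2+ γδ T-like cells stand near the top and follicular CD4 T-like cells below the other T/ILC-like classes.

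The share of cells with XCL1 was compared at equal depth. With every cell thinned to the UMI minimum of the cell filter, XCL1 was seen in 66.7% and 78.3% of non-naive group 1 ILC-like cells, in 65.7% and 63.9% of non-naive CD2+ γδ T-like cells, in 50.8% and 41.0% of group 3 ILC-like cells, and in 34.4% and 40.1% of non-naive CD8 T-like cells of pigs 1 and 2. Non-naive mixed T-like cells, high in mean level, gave 24.0% with pigs pooled. Cytotoxic group 1 ILC-like cells gave 10.9% and 12.05%, and follicular CD4 T-like cells 1.99% and 1.56%, against 1.62% and 1.07% in B lineage-like cells. These shares take in the non-PP libraries, where they were 7.53% and 3.39% in follicular CD4 T-like and 26.8% and 11.5% in B lineage-like cells. In PP and whole ileum the follicular share was 0.420% to 1.57% and the B lineage-like share 0.885% to 1.27%, so these overlapped. Without thinning, with pigs pooled, the shares were 94.8% of non-naive group 1 ILC-like cells (median 3759.5 UMIs per cell), 85.6% of non-naive CD2+ γδ T-like cells (median 3079), 3.82% of follicular CD4 T-like cells (median 1927.5) and 2.97% of B lineage-like cells (median 2956). Positive cells also differed in amount, with a median of 5 XCL1 UMIs in non-naive group 1 ILC-like, 3.5 in group 3 ILC-like, 3 in non-naive CD2+ γδ T-like and 1 in each of the 3 cytotoxic classes.

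Each class was compared with the mean of the other 13 by a quasi-likelihood fit over all genes, summed per pig, in which 15.8% of gene and class pairs were called. XCL1 was called in 10 of 14 classes, higher in 6 and lower in 4. It was higher by 2.17 on the log2 scale in non-naive group 1 ILC-like (SE 0.151, edgeR adjusted p = 1.4e-10), 2.07 in non-naive CD2+ γδ T-like, 1.52 in group 3 ILC-like and 1.37 in non-naive CD8 T-like cells. It was lower by 4.15 in follicular CD4 T-like (SE 0.265), by 1.62 in cytotoxic group 1 ILC-like and by 1.08 both in CD2- γδ T-like and in non-naive CD4 T-like cells. For cytotoxic CD8 T-like cells (-0.49), naive mixed T-like cells (-0.52), cycling mixed T-like cells (-0.07) and cycling mixed T/ILC-like cells (-0.54) the difference missed the threshold. With the pig as a block, cytotoxic CD8 T-like (adjusted p = 0.0024) and naive mixed T-like cells (adjusted p = 0.0026) were called as well. Without the non-PP libraries 12 classes were called, with naive mixed T-like cells at -1.58 and cycling mixed T-like cells at -0.39 added, and without the whole ileum library of pig 1 there were 9.

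In the order of mean levels most neighbours did not differ beyond their spread. Of 13 pairs of adjacent classes 2 were called, in a comparison with 16% of gene and pair combinations called. The classes were sorted on XCL1 itself in these same sums, which makes neighbours close in XCL1 and calls between them few by construction. Non-naive CD8 T-like stood above cytotoxic CD2+ γδ T-like cells by 0.77 (SE 0.242, edgeR adjusted p = 0.0439) and cytotoxic group 1 ILC-like above follicular CD4 T-like cells by 2.35 (SE 0.282, adjusted p = 3.4e-07). The 5 classes from non-naive group 1 ILC-like to non-naive CD8 T-like, and the 8 from cytotoxic CD2+ γδ T-like to cytotoxic group 1 ILC-like, were 2 runs without a called step between neighbours. Such a run does not make its classes alike. The ends of the second run were called in opposite directions against the other classes, at 0.54 and -1.62.

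Small clusters set the level of 2 classes. Non-naive mixed T-like cells, 179 in all, were called higher by 1.87, but ranged over libraries from 362 to 3943 CPM. They held B cell genes at 1196 to 1881 CPM in 5 of 6 libraries and at 0 CPM in non-PP of pig 1, and their XCL1 lay largely in a cluster of 32 cells led by TNFRSF9, CCL3L1 and IFNG, genes of recent activation, at 2545 to 21101 CPM per library. Cytotoxic CD2+ γδ T-like cells were called higher by 0.54 (SE 0.170, edgeR adjusted p = 0.0374), and within them a cluster of 88 cells held 2056 to 5584 CPM in every library. Without the whole ileum library of pig 1 the class value of 0.55 missed the threshold (adjusted p = 0.183). With the 88-cell cluster as a class of its own the rest of cytotoxic CD2+ γδ T-like cells was lower than the mean of the others by 0.71 (adjusted p = 0.0151). Both clusters were singled out after their XCL1 was seen.

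The non-naive and cytotoxic states were compared within each lineage, which asks whether one rule held for CD8 T cells, CD2+ γδ T cells and group 1 ILCs. XCL1 was lower in the cytotoxic class in all 3 lineages and in both pigs. CTSW helped to name the non-naive state, and the study lists XCL1 beside CTSW among genes raised in its non-naive cells. The direction may therefore follow in part from the naming and is no independent evidence. The level dropped from 745 and 923 to 231 and 304 CPM in CD8 T-like cells, from 1376 and 1271 to 550 and 515 CPM in CD2+ γδ T-like cells, and from 1348 and 1606 to 144 and 134 CPM in group 1 ILC-like cells. XCL1 fell by 1.72 on the log2 scale in CD8 T-like (SE 0.248, edgeR adjusted p = 1.7e-04, 1.85% of genes called), by 1.42 in CD2+ γδ T-like (SE 0.244, adjusted p = 4.6e-04, 6.36% called) and by 3.51 in group 1 ILC-like cells (SE 0.268, adjusted p = 1.9e-09, 2.81% called).

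The drop was larger in ILCs than in either T cell lineage. The difference between lineages was 2.09 for CD2+ γδ T-like against group 1 ILC-like cells (SE 0.347, edgeR adjusted p = 0.0070, 0.186% of genes called) and 1.79 for CD8 T-like against group 1 ILC-like cells (SE 0.348, adjusted p = 0.0172, 0.233% called). The 2 T cell lineages differed by -0.30 (SE 0.341, adjusted p = 1.0), where 0.102% of genes were called. Without the whole ileum library of pig 1 these differences were 1.71 (adjusted p = 0.806) and 1.52 (adjusted p = 1.00) and no longer called. With the 88-cell cluster apart, the first was 1.09 (adjusted p = 0.614).

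Few other secreted mediators were called between these states, and IFNG went the opposite way to XCL1. The mediators known from the dialogue of natural killer cells with cDC1, together with chemokines released with XCL1, made a list of 14 genes, and 13 were tested. Over all genes tested 1.85% were called in CD8 T-like, 6.36% in CD2+ γδ T-like and 2.81% in group 1 ILC-like cells. IFNG, the interferon that activates phagocytes and dendritic cells, was higher in the cytotoxic class by 2.10 in CD8 T-like, 2.97 in CD2+ γδ T-like cells and 1.55 in group 1 ILCs. LTB, a lymphotoxin subunit, fell by 1.92 in CD2+ γδ T-like cells, as XCL1 did. No other listed mediator was called in any lineage, and CCL4 differed by 0.35, 0.12 and 0.10 in that order. Of 9 cytotoxic granule genes 8 were tested, with 6 higher in CD8 T-like cells, 7 in the CD2+ γδ lineage and 5 in group 1 ILCs, and with CTSW lower in all 3. The granule genes and CTSW helped to name the states, and all these genes entered the clustering, so their counts describe the classes and are no independent evidence.

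Dissection was compared within class, which asks whether XCL1 differs near Peyer's patches once the makeup of cells is held. In the most XCL1-rich T cells it did not differ beyond the spread. Non-naive CD2+ γδ T-like cells held 1431 and 1311 CPM in non-PP, 1431 and 1153 CPM in PP and 1247 and 1346 CPM in whole ileum, a PP minus non-PP difference of -0.07 (SE 0.380). Non-naive CD8 T-like cells differed by -0.08 (SE 0.383) and non-naive group 1 ILC-like cells by 0.40 (SE 0.401). Over 12 classes the mean difference was -0.355 (SE 0.124, edgeR adjusted p = 0.0750), in a contrast with 6.84% of genes called. With the pig as a block the value was -0.354 (adjusted p = 0.0410), past the threshold, but it turned to 0.11 with clusters made on uncorrected principal components and to 0.065 with pig 1 left out.

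Within single classes 0.705% of gene and class pairs were called, and XCL1 was called in 4 of 12. Group 3 ILC-like cells held 209 and 316 CPM in non-PP (22 and 55 UMIs in 24 and 58 cells), 1168 and 1354 CPM in PP (228 and 273 UMIs in 50 and 58 cells) and 1270 and 986 CPM in whole ileum, and PP was higher by 2.29 (SE 0.445, edgeR adjusted p = 0.00466, 0.159% of genes called). Naive mixed T-like cells went the other way, from 493 and 557 CPM in non-PP to 61.1 and 137 CPM in PP, and fell by 2.27 (SE 0.433, adjusted p = 8.6e-04, 1.85% called). Non-naive CD4 T-like cells went from 540 and 197 to 88.6 and 90.6 CPM and fell by 2.03 (SE 0.439, adjusted p = 0.0183, 0.265% called). Follicular CD4 T-like cells went from 109 and 42.6 to 9.73 and 14.2 CPM and fell by 2.77 (SE 0.566, adjusted p = 9.1e-04, 4.35% called). On uncorrected components naive mixed T-like cells turned to 2.44 (adjusted p = 0.542), and without the whole ileum library of pig 1 non-naive CD4 T-like cells missed the threshold (adjusted p = 0.0510). The groups did not overlap in any of these 4 classes, and in each pig whole ileum lay nearer to PP than to non-PP. The other 8 classes ranged from -0.98 to 0.83, none called.

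Marker lists moved with these calls. Cytotoxic genes summed to 2447 and 4395 CPM in group 3 ILC-like cells of non-PP against 758 and 948 CPM in PP, while the group 3 ILC markers summed to 12141 and 8433 against 19139 and 15723 CPM. In naive mixed T-like cells the naive markers were at 526 and 579 CPM in non-PP against 1947 and 1536 CPM in PP, and cytotoxic genes at 2667 and 3992 against 865 and 1744 CPM. Cytotoxic genes were also higher in non-PP in non-naive CD4 T-like (3723 and 7232 against 1121 and 1488 CPM) and follicular CD4 T-like cells (3882 and 3733 against 370 and 548 CPM). The same list was higher in non-PP in non-naive CD2+ γδ T-like cells (3244 and 4825 against 1262 and 2193 CPM), where XCL1 was not called. The part of these marker differences in the XCL1 calls was not tested.

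Cells were therefore also gated on their own transcripts in place of clusters. A gated cell had a CD3E UMI and UMIs of just 1 of CD8B, CD4 and TRDC, so cells with more than 1 of these genes were left out. CD3E+ CD4+ cells held 26.3 and 7.44 CPM in non-PP (4 and 2 XCL1 UMIs), 12.4 and 7.76 CPM in PP and 22.4 and 17.6 CPM in whole ileum, a difference of -0.47 (SE 0.601, edgeR adjusted p = 0.868). CD3E+ CD8B+ cells held 617 and 667 CPM in non-PP against 424 and 583 CPM in PP (-0.29, SE 0.257, adjusted p = 0.983). CD3E+ TRDC+ cells, TRDC being the constant chain of the γδ receptor, held 744 and 894 against 671 and 756 CPM (-0.18, SE 0.255, adjusted p = 0.939). No gate was called, and the mean over the 3 was -0.313 (SE 0.236, adjusted p = 0.574). The high XCL1 of CD4 T-like classes in non-PP was thus not seen in CD3E+ CD4+ cells without CD8B or TRDC UMIs. These were 47 and 85 cells in non-PP with 4 and 2 XCL1 UMIs. Their 26.3 and 7.44 CPM lay below the non-PP values of both CD4 T-like classes given above. Such counts fix the gated level only loosely and do not show that XCL1 was absent.

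In blood ILCs held the largest part of XCL1. Peripheral ILC-like cells, named by natural killer cell genes such as NCR1 and PRF1, held 409 and 573 CPM, 1659 UMIs in all, which was 44.9% of blood XCL1 in 12.3% of blood cells. Non-naive CD2+ γδ T-like cells held 231 and 132 CPM and cytotoxic CD8 T-like cells 108 and 25.8 CPM. Naive CD4 T-like cells (8.57 and 4.91 CPM) and CD2- γδ T-like cells (8.58 and 4.49 CPM) stood within a few CPM of B lineage-like cells. Cytotoxic mixed T/ILC-like cells held 83.7 CPM in pig 1 and 479 CPM in pig 2, so the pigs differed more in this class than in any lineage below.

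Ileum was compared with blood within 5 lineages summed over their classes, to ask whether the gut form of a lineage held more XCL1 than its circulating form. XCL1 was higher in ileum in the classes of all 4 T cell lineages, but only CD2- γδ T-like cells were of the same class in both tissues. Ileal CD8 T-like cells were cytotoxic and non-naive, those of blood cytotoxic and naive. Ileal CD2+ γδ T-like cells were non-naive and cytotoxic, those of blood non-naive only. Classes named mixed entered no lineage. With pigs pooled, cytotoxic CD8 T-like cells alone held 264 CPM in ileum and 67.6 CPM in blood. Non-naive CD2+ γδ T-like cells alone held 1329 and 151 CPM, and neither pair was tested. CD2+ γδ T-like cells held 1022 and 995 CPM in ileum against 231 and 132 CPM in blood, from 41 and 150 blood cells, and were higher by 2.83 (SE 0.450, edgeR adjusted p = 3.9e-04, 12.5% of genes called). CD8 T-like cells held 494 and 642 against 95.03 and 26.5 CPM and were higher by 3.16 (SE 0.418, adjusted p = 3.3e-05, 19.7% called). CD2- γδ T-like cells held 117 and 225 against 8.58 and 4.49 CPM (4.90, SE 0.644, adjusted p = 5.4e-05, 11.3% called) and CD4 T-like cells 97.7 and 68.2 against 8.57 and 4.91 CPM (3.61, SE 0.523, adjusted p = 6.9e-05, 25.4% called). In each of these lineages both ileal values lay above both blood values. The CD4 contrast set follicular and non-naive classes of ileum against a naive class of blood, and without the non-PP libraries it was 2.98 (adjusted p = 3.5e-04). Ileal cells gated on CD3E and CD4 held 7.44 to 26.3 CPM, nearer to the blood values, and were not tested against blood. These gated values lay near the ileal background of B lineage-like cells given above. Background also differed by tissue, with near-empty barcodes at 177 to 432 CPM in ileum and 73.4 and 69.3 CPM in blood. No ambient RNA correction was applied, and the part of background in these differences was not tested.

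ILCs, here the group 1 ILC-like classes of ileum and the peripheral ILC-like cells of blood, did not share this rise. They held 289 and 338 CPM in ileum against 409 and 573 CPM in blood, a difference of -0.74 (SE 0.379, edgeR adjusted p = 0.163), in a contrast with 28.4% of genes called. With the pig as a block the difference was -0.742 (adjusted p = 0.0418), past the threshold, and without the non-PP libraries it was -0.26 (adjusted p = 0.654). The tissue difference itself differed between ILCs and each T cell lineage, by 5.64 for CD2- γδ T-like (SE 0.762, adjusted p = 9.7e-05, 6.52% called), 4.35 for CD4 T-like (SE 0.651, 14.4% called, with the limit on state given above), 3.90 for CD8 T-like (SE 0.560, 4.14% called) and 3.57 for CD2+ γδ T-like cells (SE 0.589, adjusted p = 8.2e-04, 6.15% called). The limit on state also holds for CD8 and CD2+ γδ T-like cells. The 6 differences among T cell lineages were not called.

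**Figure D2:**
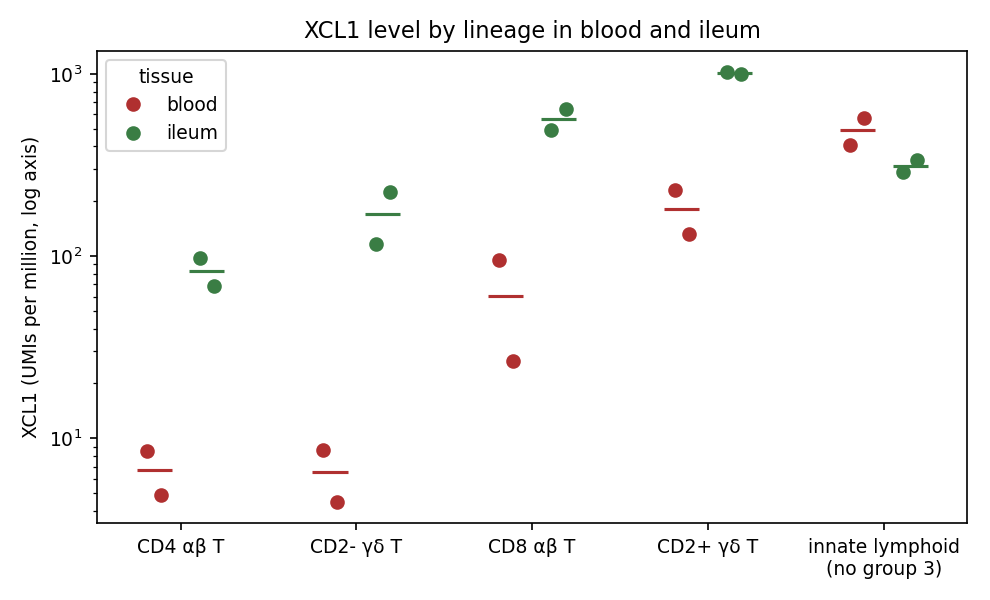
XCL1 level in CPM (log axis) in blood (red) and ileum (green) for 5 lineages, with a point for each pig and a short horizontal line at the mean of each tissue. The mean is higher in ileum than in blood for the 4 T cell lineages and lower in ileum for ILCs, whose difference missed the threshold.

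Ileal ILCs are a mixture, and the lineage sum hides it. The 2155 cytotoxic group 1 ILC-like cells (139 CPM) outnumbered the 210 non-naive group 1 ILC-like cells (1477 CPM). The ileal sum given above lay between these values, nearer to the cytotoxic one. The blood sum of 409 and 573 CPM also lay between them. With cells thinned as above, XCL1 was seen in 15.4% and 18.4% of ileal against 28.0% and 35.4% of blood ILC-like cells, but in 45.4% and 46.5% of ileal against 14.6% and 16.0% of blood CD2+ γδ T-like cells.

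Early activation genes rose in ileum in every lineage, also in ILCs. Of 21 listed genes 18 were tested, and 17 were higher in CD4 T-like, 16 in CD2- γδ T-like, 14 in CD8 T-like, 13 in ILC-like (with 1 lower) and 11 in CD2+ γδ T-like cells. Over all genes tested 25.4%, 11.3%, 19.7%, 28.4% and 12.5% were called, in that order. FOS, a first-wave activation gene that tissue digestion is also known to induce, was higher by 3.97 in ILC-like cells and by 7.10 in CD4 T-like cells, and CD69, a retention and activation receptor, by 4.60 and 2.90. Ileal tissue was dissociated and blood was not, so tissue and handling cannot be told apart in any of these contrasts.

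Of the 14 XCL1-related mediators 13 were tested, in the same contrasts with 25.4% of genes called in CD4 T-like, 19.7% in CD8 T-like, 11.3% in CD2- γδ T-like, 12.5% in CD2+ γδ T-like and 28.4% in ILC-like cells. In CD4 T-like cells 11 were higher in ileum, among them IFNG by 5.57, CCL4 by 3.93 and TNF by 3.15. In CD8 T-like cells 4 rose and 1 fell, CD2- γδ T-like cells had the same counts, and CD2+ γδ T-like cells had 3 and 1. In ILC-like cells 1 was higher, CCL20 by 6.31, and 4 were lower, LTB (-4.06), TNF (-4.24), CCL3L1 (-1.88) and IFNG (-0.70). LTB was the lower gene of each γδ and CD8 lineage, at -2.62 in CD8 T-like cells. The median of the list was 4.54 in CD4 T-like and 0.00 in ILC-like cells, beside -0.01 and 0.01 over all genes tested.

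Within ileal T/ILC-like classes, cells with XCL1 were compared with cells without it, to see which genes go with an XCL1 UMI within a class. Status was read in the thinned cells, and sums per class and pig were fitted with the class as a term, 20 groups in all. A class still pools sub-clusters and dissections, so a gene called here can mark one of these. The XCL1-rich cluster of cytotoxic CD2+ γδ T-like cells given above was not set apart in this fit. Of 6350 genes tested 50 were called, 0.787%, with 33 higher and 17 lower. Among the genes with the largest rises were CCL4 (log2 fold change 1.19, SE 0.270, edgeR adjusted p = 0.0188), a chemokine made by activated lymphocytes, and NR4A1 (0.89), an early target of antigen receptor signals. LRCH1 (0.87), CTSW (0.86), a cathepsin of killer cells that also helped to name classes, NAPSA (0.79), FCER1G (0.67), the signaling adaptor of innate receptors, CD200R1 (0.67) and SLA-DQB1 (0.64), a swine MHC class II chain, followed.

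The genes with the largest falls were LGMN (-1.08), a lysosomal protease, LARP4B (-0.77), C2orf49 (-0.74), CREBRF (-0.65), GPR183 (-0.63), an oxysterol receptor that guides lymphocyte positioning, ENSSSCG00000026140 (-0.60), RAB27A (-0.57), a GTPase of granule release, LXN (-0.56), GZMA (-0.56), the killer protease granzyme A, and DTX3 (-0.46). These 18 genes moved in the same direction in both pigs, as the rule that named them required. The number of genes called was 20 without the whole ileum library of pig 1, 44 without the non-PP libraries and 107 with the pig as a block, and under the block CD200R1 missed the threshold (adjusted p = 0.0549). Without the whole ileum library of pig 1, 10 of the 17 named genes tested missed it, CCL4 (adjusted p = 0.524), NR4A1 and LGMN (both 0.0958) and GZMA (0.334) among them. Without the non-PP libraries 9 of 16 missed it, with CCL4 at 0.300 and NR4A1 at 0.318, and in both settings every gene tested kept its direction.

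**Figure D3:**
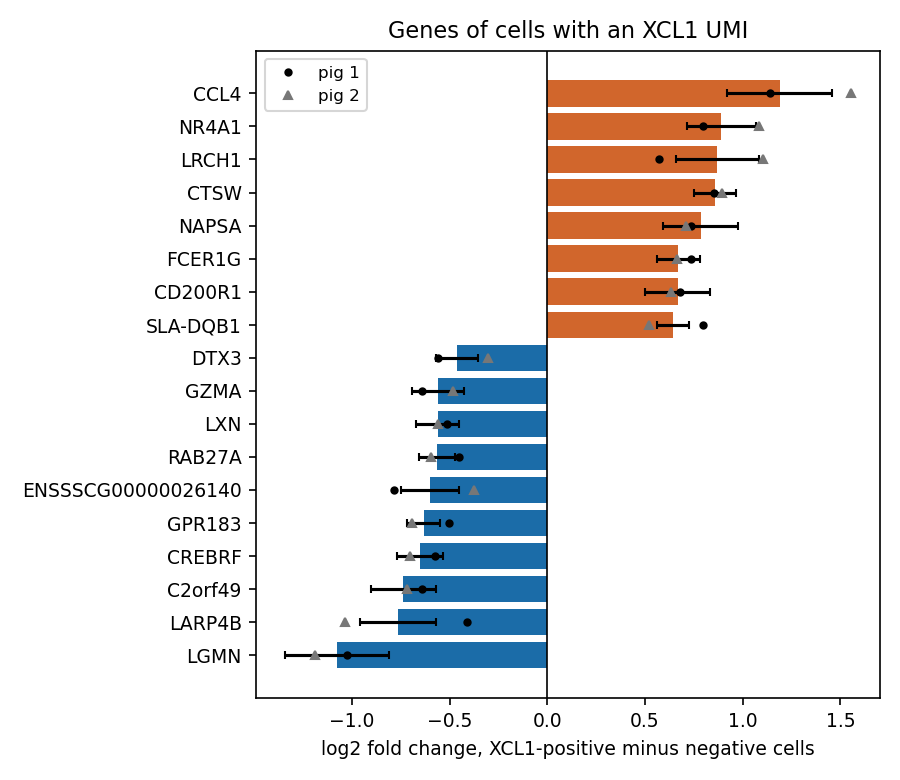
Log2 difference between XCL1-positive and XCL1-negative cells of the same ileal T/ILC-like class for the 18 named genes, with bars for the fitted value, whiskers for its SE and points for each pig. Of the genes plotted, CCL4 has the largest positive value (1.19) and LGMN the largest negative one (-1.08).

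Gene lists had few members called, beside the 0.787% of all genes tested. Of 19 innate receptors and adaptors 10 were tested and 3 were higher, KLRK1 (0.59), which encodes the activating receptor NKG2D, FCER1G and CD244 (0.49), with a list median of 0.43 beside -0.03 over all genes tested. Of 21 activation response genes 17 were tested and 2 were higher, NR4A1 and NFKBIA (0.38), with a median of 0.25. Of 15 residency and homing genes 8 were tested and 2 were higher, among them CCR9 (0.50), the gut-homing receptor, with a median of 0.17. Of 8 cytotoxic granule genes tested out of 9, CTSW was higher and GZMA lower (median -0.30). Among 14 mediators 6 were tested and 1, CCL4, was higher, while IFNG differed by 0.11 (SE 0.162) and CCL5 by 0.13 (SE 0.102). Of 21 lymphoid transcription factors 15 were tested and TCF7 was higher by 0.38 (median -0.02).

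Over the 14 ileal T/ILC-like classes, the genes whose level followed XCL1 most closely were DKKL1 (Pearson r = 0.822), RHOQ (0.768), CA2 (0.757), PPP3CA (0.749) and SLA-DMA (0.744) among 8965 genes, followed by MGST1, RAB4A, TIMM44, ENSSSCG00000036083 and NAPSA at 0.726 to 0.697. The points are classes of the same libraries, so the values describe these data only. CA2, carbonic anhydrase 2, was at 92.7 and 84.1 CPM in non-naive CD2+ γδ T-like and 74.1 and 69.1 CPM in the non-naive group 1 ILC-like class, and at 1.09 and 1.78 CPM in cytotoxic CD8 T-like cells.

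XCR1 was rare in ileum, and nearly all of it sat in dendritic cells. XCR1 had 42 UMIs in all ileal cells, and 40 of them, 95.2%, lay in 23 of the 261 DC-like cells, with 1 in a B lineage-like and 1 in a T/ILC-like cell. DC-like cells held FLT3, the growth factor receptor of dendritic cells, at 190 and 199 CPM in pigs 1 and 2 where macrophage-like cells had 0. They held little of the macrophage genes C1QA (24.9 and 35.4 against 8947 and 8874 CPM) and CD68, so the class as a whole matched its label. A sub-cluster of 50 of these cells, given below, also held T/ILC markers. Near-empty barcodes gave 1 XCR1 UMI in all ileal libraries together, so free RNA carried next to none of it.

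By library, DC-like cells of pig 1 held 1 XCR1 UMI in non-PP (12 cells), 2 in PP (51 cells) and 4 in whole ileum (55 cells), and those of pig 2 held 5 (44 cells), 21 (54 cells) and 7 (45 cells). That is 12.4 CPM in pig 1 and 48.7 CPM in pig 2, and every dissection of pig 2 exceeded the same dissection of pig 1. The 4 whole ileum UMIs of pig 1 come from the library that went against its label, and the difference between pigs was not tested. Over all cells of a library XCR1 differed between PP and non-PP by 1.02 (SE 1.48, edgeR adjusted p = 0.639) and between ileum and PBMC by -0.51 (SE 1.05, adjusted p = 0.752). With 1 to 22 UMIs in an ileal library, a difference by dissection was not detectable at this depth.

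DC-like cells exceeded the lymphocyte lineages by 9.89 on the log2 scale (SE 0.812, edgeR adjusted p = 3.2e-05), with 32.1% of genes called. XCR1 passed the expression filter through DC-like cells alone. This call and that against macrophage-like cells below therefore describe the class and are no independent evidence. The lymphocyte test could be run only through 1 T/ILC-like UMI, from the whole ileum library of pig 1. Set against the single counts of the other cells, the ratio was 1921 to B lineage-like cells (95% interval 326 to 77759, counting error only) and 1517 to T/ILC-like cells (257 to 61407). Macrophage-like cells held no XCR1 UMI among 785964 (148 cells), so DC-like cells were at least 8.45-fold higher against a floor of 3 counts. The fitted size of that difference depends on how 0 counts are handled and is not given as a fold. Its test gave adjusted p = 0.0450 with 7.41% of genes called, and was past the threshold by a narrow margin only. By DESeq2 the adjusted p was 0.333, without the whole ileum library of pig 1 it was 0.0983, and without the non-PP libraries 0.0514. CCR1 had 3 UMIs in DC-like and 14 in macrophage-like cells, the reverse of XCR1.

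**Figure D4:**
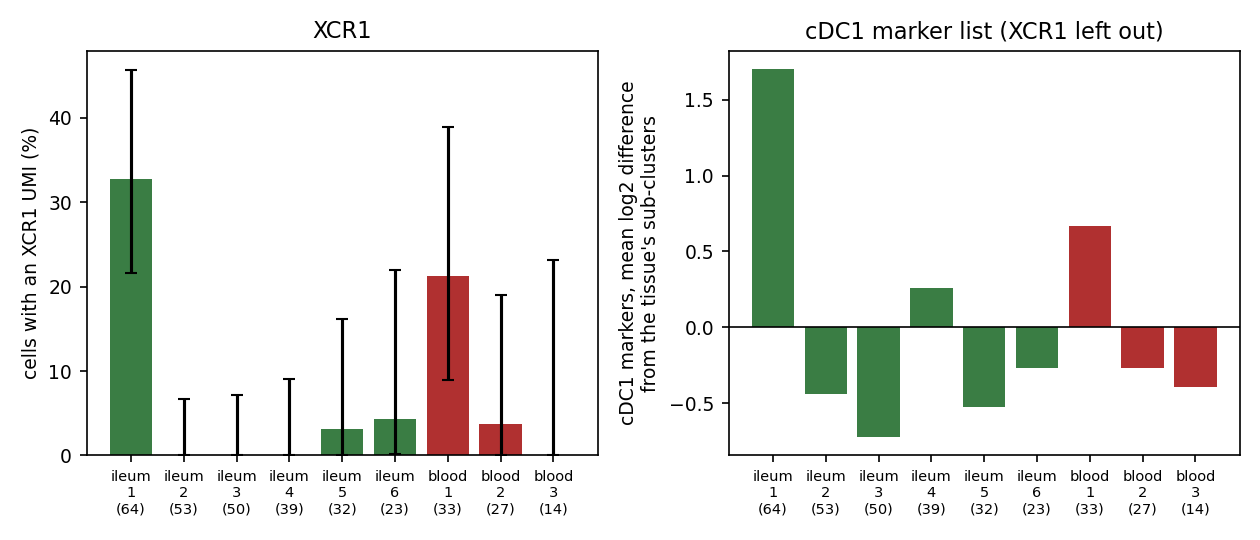
Left, percent of cells with an XCR1 UMI in each sub-cluster of ileal DC-like and blood pDC-like cells, with exact 95% binomial intervals. Right, mean log2 difference of cDC1 marker genes other than XCR1 from the mean over sub-clusters of the same tissue. Ileal sub-cluster 1 (32.8%) and blood sub-cluster 1 (21.2%) stand highest in both.

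Within the ileal DC-like cells XCR1 marked 1 of 6 sub-clusters, which were also made without XCR1. Sub-cluster 1, 64 cells led by DNASE1L3, SNX22 and CADM1, held 38 of the 40 UMIs in 21 cells, 32.8% of its cells (95% interval 21.6% to 45.7%), at 104 CPM. It also had the most CADM1 (490 CPM), the adhesion molecule of cDC1, SNX22 (561 CPM), BATF3 (959 CPM), the factor cDC1 development depends on, and IRF8 (820 CPM). Of 8 cDC1 markers 7 were detected and 6 were highest there, a count that takes in a marker without an UMI in any sub-cluster. On the log2 scale the list averaged 1.70 above the mean of the sub-clusters, the highest of them, which names it cDC1-like. It had no CCR1 UMI, so its XCR1 reads stood alone. In pig 1 it held 0, 2 and 4 XCR1 UMIs in 3, 12 and 11 cells of non-PP, PP and whole ileum, and in pig 2 it held 4, 21 and 7 in 10, 14 and 14 cells.

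The other 5 sub-clusters held 2 XCR1 UMIs. Sub-cluster 2, with 53 cells and a higher median depth than sub-cluster 1 (7020 against 6227 UMIs per cell), held 0, which allows a share of cells of up to 5.66%. Sub-clusters 3 and 4, with 50 and 39 shallow cells of 1860 and 1584 UMIs, also held 0, which allows up to 6.0% and 7.69%, with 1 CCR1 UMI in sub-cluster 4. Sub-cluster 3 had 11 of 11 T/ILC markers highest among the sub-clusters, and 2 of 8 cDC1 markers were detected in it. Of its cells 26 came from non-PP of pig 2, so its place among DC-like cells is uncertain. Sub-cluster 5, 32 cells with the FCER1A (2533 CPM), CD1E and CD207 of cDC2 or Langerhans-type cells, held 1, and sub-cluster 6, 23 cells with LYZ and CCL2, held 1, each beside 1 CCR1 UMI. In the thinned cells XCR1 was seen in 2.68% of DC-like cells in place of 8.81%, so the share of cells with an XCR1 UMI is tied to depth.

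The 23 XCR1-positive DC-like cells carried the cDC1 set more often than the 238 others. CADM1 was seen in 82.6% against 17.6%, SNX22 in 82.6% against 17.6%, IRF8 in 95.7% against 34.5%, BATF3 in 91.3% against 53.4% and FLT3 in 82.6% against 41.6%. Genes of other dendritic cells went the other way, with FCER1A in 8.70% against 42.4%, SIRPA in 0% against 19.3% and CX3CR1 in 0% against 14.7%. These shares describe cells that are not replicates and were not tested. They were not matched for depth, and the others include the shallow sub-clusters 3 and 4. By level, CADM1 was at 491 against 98.9 CPM, SNX22 at 597 against 107 CPM and IRF8 at 887 against 236 CPM. BATF3 was at 982 against 403 CPM, and FLT3 was closer, at 248 against 187 CPM. CXCR3, a receptor for interferon-induced chemokines, was seen in 17.4% against 3.78%, and CCR9 in 4.35% against 16.4%.

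As lists, 14 of 18 cDC1 genes were tested. Over all genes tested 32.1% were called against lymphocytes and 7.41% against macrophage-like cells. Against lymphocytes 12 were higher and 1, GCSAM, a germinal center gene, was lower by 3.19, with a median of 4.04. Against macrophage-like cells 5 were higher, FLT3, SNX22 (5.52), BATF3 (3.08), CADM1 (1.60) and ID2 (1.46), and 1, IDO1 (-3.10), was lower, with a median of 1.53. Of 10 chemoattractant receptors of dendritic cells 9 were tested. Against lymphocytes XCR1, CX3CR1 (7.04), CCR1 (4.08) and CCR9 (1.25) were higher and CXCR4 (-2.11) lower. The CCR1 value rests on 3 UMIs in DC-like cells. Against macrophage-like cells XCR1 and CCR9 (2.61) were higher. The dendritic cell class was itself named by several of these genes, so the counts describe it.

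The 10 genes closest to XCR1 over 21 ileal classes were RIBC2 (Pearson r = 0.999), PCP4, ZBED2, ENSSSCG00000029938, CD207, CD164L2, CD1E, FCAR, FLT3 and IL22RA2 (0.979), among 12621 genes. With XCR1 nearly all in 1 class, this order names genes of DC-like cells as a whole. CD207 and CD1E, for example, led sub-cluster 5, which held 1 XCR1 UMI, and not the cDC1-like cells.

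Blood held 26 XCR1 UMIs, 2 in pig 1 and 24 in pig 2, spread over more cell types than in ileum. The pDC-like class, plasmacytoid dendritic cell-like by its markers, had 10 UMIs in 8 of 74 cells and 2 CCR1 UMIs. Monocyte-like cells had 8 XCR1 beside 471 CCR1 UMIs and macrophage-like cells 5 beside 163, and of the XCR1-positive cells 4 of 8 and 2 of 5 also held CCR1, a gene seen in 27.0% and 37.7% of these cells overall. Whether reads of the overlapping gene were counted as XCR1 in these 2 types was not tested. T/ILC-like cells had 2 and B lineage-like cells 1.

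Within the pDC-like class of blood, 9 of the 10 XCR1 UMIs lay in sub-cluster 1, in 7 of 33 cells (21.2%, 95% interval 8.98% to 38.9%), 1 UMI from the 11 cells of pig 1 and 8 from the 22 of pig 2. This sub-cluster had the BATF3 (241 CPM), CADM1 (29.3 CPM) and SNX22 (32.9 CPM) of its class to itself, with 0 UMIs of each in the other 2 sub-clusters, and 6 of 8 cDC1 markers were highest there. So were 7 of 9 mature dendritic cell, 7 of 11 monocyte and 4 of 7 cDC2 markers. These counts take in ties of markers without an UMI in any of the sub-clusters. With at least 3 UMIs there, 6 cDC1, 4 mature dendritic cell, 6 monocyte and 6 cDC2 markers were detected. By mean log2 difference from the sub-clusters, the cDC1 (0.67), mature dendritic cell (0.61), monocyte (0.60) and cDC2 lists (0.53) were each highest there. IRF8 (410 against 1707 and 1319 CPM) and TLR3 (14.6 against 93.3 and 56.4 CPM) were lowest there. Sub-cluster 1 held 1 CCR1 and 0 XCL1 UMIs. Sub-cluster 2, with TCF4, SPIB and BLNK, genes of plasmacytoid cells, held 1 XCR1 and 1 CCR1 UMI in 27 cells, and sub-cluster 3 held 0 in 14 cells, which allows up to 21.4%. Among the dendritic cells of both tissues, most XCR1 UMIs thus lay in the sub-cluster with the most cDC1 genes. In blood that sub-cluster also led in genes of other dendritic cells and of monocytes.

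In the ileal DC-like cells themselves XCL1 was at 33.8 and 72.3 CPM, in 4.21% of cells after thinning, above B lineage-like cells of PP and whole ileum but below every T/ILC-like class except follicular CD4 T-like cells. Sub-cluster 1 held 30 XCL1 UMIs in 18 of its 64 cells, at 81.7 CPM, and sub-cluster 6 held 0 in 23. Sub-cluster 3, with the T/ILC markers, had the highest level, 100 CPM, from 11 UMIs in 3 of its 50 cells.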

How the data were processed

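The authors deposited UMI counts per gene and barcode for 8 libraries (10x Chromium v2, Cell Ranger, version 4.0.6 per the submitters' processing notes, Sscrofa11.1 with an adapted Ensembl annotation), with the 4 sequencing runs of a library pooled and all barcodes kept. The study's ambient RNA correction was not applied here. Cells with at least 1250 UMIs, at least 550 genes and at most 12.5% mitochondrial UMIs were kept, and cells with a doublet score above 0.25 were removed. Simulated doublets were called at 25.6% to 50.3% per library, so doublets remain. Cells were clustered by tissue with scanpy 1.11.5 (3000 variable genes without XCL1 and XCR1, 30 principal components corrected for library, 20 neighbours, Leiden resolution 3 in ileum and 1.5 in blood), and the 50 ileal and 26 blood clusters were named from markers, since no deposited annotation was used. A rebuilt name can differ from the study's. DC-like cells were sub-clustered with 1000 genes, 10 components and resolution 1.

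Counts were summed per pig (per library for dissections) and class, for classes of at least 20 cells per pig or 10 per library, and tested with edgeR 4.0.16 (TMM, filterByExpr, quasi-likelihood, R 4.3.3) with Benjamini-Hochberg adjustment over all genes tested. Genes at 0 in a group of a contrast over 3 or more groups were not tested. A call is an adjusted p under 0.05. The scripts were tested on simulated counts. With 2 pigs per group, p-values rest on the spread between the pigs within a group, pooled over the groups of a fit. Sums of the same pig entered as separate groups without a pig term. A shift shared by the sums of a pig is therefore not fully counted. Same-numbered samples come from the same pig and are paired by that. Over pairs of groups the pig deviations correlated with a median of 0.0407 to 0.201 across the 6 fits, and fits with the pig as a block are an alternative, as are DESeq2 1.42.0, no filter, cells of at least 2000 UMIs, doublets kept, other clusterings and libraries left out. Shares have exact 95% binomial intervals, which with the floor of 3 counts cover counting error only.

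Genes named with XCL1 were the 10 largest and 10 smallest changes among calls of the same sign in both pigs, and the genes most like a member were the 10 with the highest correlation of log2(CPM + 1) over classes. A few further genes were named from the lists or for a role in a cluster, after their values were seen. The members and lists were chosen with earlier results of these data known. Names for gene identifiers came from the files for 17733 genes and from a RefSeq name table for 969. No sequence table was used, and no sequence is shown. Results for a few genes are not reported here.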

Additional observations from a re-analysis of the deposited data

Results flagged for a closer look

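The size of the XCL1 difference between cytotoxic and non-naive cells differed between lineages by the test of the difference itself. On the log2 scale it was 2.09 smaller in CD2+ γδ T-like than in group 1 ILC-like cells (edgeR adjusted p = 0.0070) and 1.79 smaller in CD8 T-like than in group 1 ILC-like cells (adjusted p = 0.0172). Both calls were lost without the whole ileum library of pig 1. The first was also lost, at 1.09, with the small XCL1-rich cluster of cytotoxic CD2+ γδ T-like cells apart. The second was also lost at lower resolution and on uncorrected principal components. XCL1 was lower in the cytotoxic class of both pigs in all 3 lineages, with the limit on naming given above.

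The ileum minus blood difference of XCL1 also differed between ILCs and each T cell lineage, by 5.64 in CD2- γδ T-like, 4.35 in CD4 T-like, 3.90 in CD8 T-like and 3.57 in CD2+ γδ T-like cells (edgeR adjusted p = 9.7e-05, 1.8e-04, 3.8e-04 and 8.2e-04). The CD4 value set non-naive and follicular ileal classes against naive blood cells, was 3.25 without the non-PP libraries, and stands beside 7.44 to 26.3 CPM in ileal CD3E+ CD4+ cells. The CD8 and CD2+ γδ classes were also of partly different states in ileum and blood.

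Between PP and non-PP, XCL1 went one way in both pigs in group 3 ILC-like cells (2.29 higher in PP) and the opposite way in both pigs in follicular CD4 T-like (-2.77), naive mixed T-like (-2.27) and non-naive CD4 T-like cells (-2.03). The naive mixed T-like value turned to 2.44 on uncorrected principal components, the non-naive CD4 T-like call was lost without the whole ileum library of pig 1 (adjusted p = 0.0510), and gated CD3E+ CD4+ cells differed by -0.47 (adjusted p = 0.868). The difference between these classes was not tested, and their marker lists moved with dissection as well, whose part was not tested.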

How the results depend on the processing

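Of 307 alternative values of the 32 main results, 278 kept direction and, where tested, the call. Of these, 25 without pig 1 and 22 without pig 2 were judged by direction alone, since 1 pig allows no test. Results that are counts were held the same within a ratio of 1.5. Thinned to the UMI minimum, cells held XCL1 in 23.4% of ileal T/ILC-like cells and XCR1 in 2.68% of DC-like cells, against 33.8% and 8.81%. Genes called in XCL1-positive cells numbered 124 with doublets kept, 126 without a filter, 107 with the replicate block, 250 with status from all UMIs (NFKBIA then -0.045) and 20 without the whole ileum library of pig 1. The mean PP minus non-PP difference was -0.36 without a filter and -0.35 with the replicate block, both called, 0.11 on uncorrected principal components, and -0.51 to 0.065 with 1 pig left out. On uncorrected components naive mixed T-like cells reversed to 2.44, group 3 ILC-like cells gave 2.23 and the cytotoxic minus non-naive difference of CD2+ γδ T-like cells -0.62, none called. Non-naive CD4 T-like cells gave -2.02, not called, without that whole ileum library. The lineage differences against group 1 ILC-like cells lost their calls at 1.09 (cluster apart) and 1.71 (without that library) for CD2+ γδ T-like, and at 1.48 (lower resolution), 1.74 (uncorrected) and 1.52 (without that library) for CD8 T-like cells. The CD8 minus CD2+ γδ difference turned to 0.71 with the cluster apart. The ILC difference between ileum and blood was called at -2.01 with doublets kept, -0.70 without a filter and -0.74 with the replicate block. XCR1 in DC-like against macrophage-like cells, whose fitted values are set by the handling of 0 counts and are no folds, was not called at 6.03 (DESeq2), 11.48 (lower resolution), 11.22 (at least 2000 UMIs), 11.25 (without non-PP) or 11.30 (without that library). Class values reversed for cycling mixed T-like (0.31 with doublets kept, 0.18 uncorrected, -0.24 to 0.17 with 1 pig left out), cytotoxic CD2+ γδ T-like (-0.71, cluster apart) and non-naive mixed T-like cells (-0.17, uncorrected). The cause was not tested in any of these. The replicate block changed no other call than those named here and in the results. XCR1 of DC-like against lymphocyte cells could not be tested without the whole ileum library of pig 1, since T/ILC-like cells then held none. The settings "cluster apart" and "without the non-PP libraries" were chosen after seeing the data. Depth limits XCR1, with 68 UMIs in all cells.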

Other observations

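Plasmacytoid dendritic cell-like cells of blood carried XCL1. In sub-cluster 2 of the pDC-like class, 27 cells (6 of pig 1 and 21 of pig 2) with TCF4 at 927 CPM, BLNK at 920 CPM and SPIB at 340 CPM, 45 XCL1 UMIs lay in 22 cells, 81.5% of them (95% interval 61.9% to 93.7%), at 300 CPM. Sub-cluster 1, with the cDC1 genes and most of the XCR1 UMIs, held 0 XCL1 UMIs in 33 cells at a greater median depth (8276 against 5571 UMIs per cell). B lineage-like cells of the same libraries were at 2.78 and 2.32 CPM. By marker lists sub-cluster 2 also had 8 of 11 T/ILC markers highest among the 3 sub-clusters. This sub-cluster was singled out after its XCL1 was seen.

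Among the ILCs of blood, a cluster of 147 cells (100 of pig 1 and 47 of pig 2) led by NCR1, KLRB1, KLRC1, EOMES and KLRF1, receptors and a transcription factor of natural killer cells, held XCL1 at 829 and 874 CPM. The main ILC-like cluster, with 733 and 707 cells, held 321 and 545 CPM. This cluster too was singled out after its values were seen.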
